A study of Mus musculus with 12 samples.

Results

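The liver sinusoid is lined by a specialised endothelium, and 10 genes that mark it (*Stab1*, *Stab2*, *Clec4g*, *Lyve1*, *Oit3*, *Fcgr2b*, *Wnt2*, *Rspo3*, *Kdr* and *Pecam1*) were followed across the livers of this series. The genes were chosen by symbol, and each matched a row among the 45777 genes of the deposited table. Liver RNA came from 12 mice of the C57BL/6 strain, aged 10 to 12 weeks by the labels, with 3 mice in each of 4 groups: WT given vehicle, WT given APAP, mice labelled Gα12-/- (here, the KO label) given vehicle, and mice with the KO label given APAP. By the study's methods the mice were male, the WT mice were littermates of the *Gna12* KO mice, and APAP was given by intraperitoneal injection at 300 mg/kg after an overnight fast, with sampling 6 h later. APAP stands for acetaminophen, an analgesic whose overdose injures hepatocytes. The design compared APAP-injured with uninjured liver, and WT livers with those that carry the KO label, for Gα12, a G protein subunit. Libraries were made from poly-A RNA of whole liver, so each value is a share of the RNA of all cell types, and fewer endothelial cells cannot be told apart from less RNA per cell.

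Liver sinusoidal endothelial cells form a porous wall between blood and hepatocytes. They clear waste from the blood through scavenger receptors such as the stabilins, through lectins and through Fc receptors. Those near the central vein also secrete WNT2 and R-spondin 3, ligands that maintain the pericentral hepatocyte program. KDR, a receptor for VEGF, and PECAM1, a junctional adhesion molecule, are found on endothelium of many vessels and not on the sinusoid alone.

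The reads counted on genes totalled 49737950 to 69566079 per liver. *Gna12*, the targeted gene, had 1193 to 4373 counts in WT livers and 2472 to 4003 counts in livers with the KO label. Its counts were thus not lower under that label, and in these counts a direction drawn from the genotype rests on the label alone. The study checked *Gna12* in its KO mice by PCR of tail DNA and qRT-PCR of liver, and Gα12 by immunoblot. Whether those mice gave the livers sequenced here was not stated in the sources used here. Whether the counted exons lie outside the deleted part was not given in the sources used here. WT APAP liver 1 stood apart, with 238212 counts of *Hba-a1* (a hemoglobin chain) against 2551 to 7713 in the other 11 livers. WT vehicle liver 2 also stood apart, with 351 counts of the neutrophil gene *S100a9* against 4 to 27 in the other vehicle livers. Calls that changed without these livers are given beside each result.

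All 10 members are protein-coding genes and lie on the minus strand of GRCm38. *Stab1* (gene 192187) lies at chr14:31139017-31168651, *Stab2* (gene 192188) at chr10:86841194-87008038, *Lyve1* (gene 114332) at chr7:110850607-110862953, *Clec4g* (gene 75863) at chr8:3707066-3720695 and *Fcgr2b* (gene 14130) at chr1:170960558-170976071. *Oit3* (gene 18302) lies at chr10:59422960-59441779, *Wnt2* (gene 22413) at chr6:17985474-18032772 and *Rspo3* (gene 72780) at chr10:29453106-29535867. *Kdr* (gene 16542) lies at chr5:75932827-75979072 and *Pecam1* (gene 18613) at chr11:106654213-106715281. Promoter windows, from 250 bases before to 50 after a RefSeq start site in GRCm38.p6, were at hand for 6 of the 10 genes, and *Lyve1*, *Oit3*, *Rspo3* and *Pecam1* had no entry. Windows of 4 genes are shown because the results below turn on how these genes differ: *Stab1* and *Stab2* are related receptors with unequal change, *Kdr* is the member that varied most closely with *Stab2* and *Oit3*, and *Clec4g* was the most abundant. Capitals mark AGGAAG or its reverse complement, letters bound by ETS factors, a family that includes the endothelial regulator ERG. The windows are chr14:31168592-31168891, chr10:87007893-87008192, chr5:75978406-75978705 and chr8:3720602-3720901, all on the minus strand and written 5′ to 3′.
Stab1: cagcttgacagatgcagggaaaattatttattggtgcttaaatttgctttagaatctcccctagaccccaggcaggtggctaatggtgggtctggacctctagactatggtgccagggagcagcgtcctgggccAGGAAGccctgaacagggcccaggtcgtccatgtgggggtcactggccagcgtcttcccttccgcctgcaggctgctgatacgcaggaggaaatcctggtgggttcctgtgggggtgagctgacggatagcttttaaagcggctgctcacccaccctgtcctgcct
Stab2: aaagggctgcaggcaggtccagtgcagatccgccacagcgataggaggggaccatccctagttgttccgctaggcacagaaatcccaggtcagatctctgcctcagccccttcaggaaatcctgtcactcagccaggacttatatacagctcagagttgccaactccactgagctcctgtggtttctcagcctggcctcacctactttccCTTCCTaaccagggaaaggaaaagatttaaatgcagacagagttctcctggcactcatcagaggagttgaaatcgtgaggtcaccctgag
Kdr: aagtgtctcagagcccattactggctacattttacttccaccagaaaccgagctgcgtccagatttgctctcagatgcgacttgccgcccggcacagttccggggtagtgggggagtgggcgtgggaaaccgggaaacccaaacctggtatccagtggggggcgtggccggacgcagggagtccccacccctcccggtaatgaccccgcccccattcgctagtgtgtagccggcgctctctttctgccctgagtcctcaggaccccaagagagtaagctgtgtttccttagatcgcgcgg
Clec4g: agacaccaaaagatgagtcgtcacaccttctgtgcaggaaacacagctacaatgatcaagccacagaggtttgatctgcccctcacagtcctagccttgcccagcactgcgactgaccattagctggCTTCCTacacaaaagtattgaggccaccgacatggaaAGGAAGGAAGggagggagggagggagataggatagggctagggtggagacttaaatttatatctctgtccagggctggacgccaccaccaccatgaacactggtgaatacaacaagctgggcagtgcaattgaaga
The AGGAAG letters, searched on both strands, were found in the windows of 3 of the 6 genes (*Stab1*, *Stab2* and *Clec4g*) and in 35.4% of 32851 windows of the same length. The first base of the match lay 116 bases before the start site in *Stab1* and 40 bases before it in *Stab2*. *Clec4g* held 3 matches, the first of them 123 bases before the start site, and the other two overlapped each other. The AP-1 letters TGANTCA (7.81% of all windows) and the GATA letters AGATAA (11.2%) were in none of the 6 windows. A match is a description of the letters and not a site of binding.

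Levels of different genes were compared in TPM, which is per transcript length. Over the 12 livers *Clec4g*, a C-type lectin, was highest at 60.2 ± 12.9 TPM (SD, n = 12), followed by the inhibitory Fc receptor *Fcgr2b* at 31.5 ± 5.55 TPM. *Clec4g* exceeded *Fcgr2b* in 12 of 12 livers, and *Fcgr2b* exceeded *Stab1* in 12 of 12. The scavenger receptor *Stab1* (13.1 ± 3.67 TPM), *Oit3* (11.1 ± 3.26 TPM), the hyaluronan receptor *Lyve1* (10.8 ± 4.81 TPM) and *Stab2* (9.63 ± 2.44 TPM), another scavenger receptor that takes up hyaluronan, came next, and neighbours in this order changed places between livers. *Stab1* exceeded *Oit3* in 7 of 12 livers and *Oit3* exceeded *Lyve1* in 5. *Stab1* exceeded *Stab2* in 5 of 6 vehicle livers and 6 of 6 APAP livers. *Lyve1* lay below *Stab2* in all 6 vehicle livers and above it in all 6 APAP livers. *Pecam1* (7.49 ± 1.95 TPM) and *Kdr* (7.45 ± 2.39 TPM) had close means, with *Pecam1* the lower in all 6 vehicle livers and the higher in all 6 APAP livers. The secreted ligands were lowest, with *Rspo3* at 2.63 ± 1.28 TPM and *Wnt2* at 1.60 ± 0.352 TPM, and *Rspo3* exceeded *Wnt2* in 9 of 12 livers. By mean TPM *Wnt2* stood above 76.6% of the 45777 genes in the table. Only 16112 of these passed the filter on low counts over 12 livers, so that share does not mark a high level. All 10 members passed the filter on low counts in every comparison, and the lowest count of any member in any liver was 118, for *Rspo3*.

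APAP was compared with vehicle first over all 12 livers, with the genotype label as a term. Of the 10 members 4 were higher with APAP (*Lyve1*, *Rspo3*, *Stab1* and *Pecam1*) and 0 were lower by edgeR's quasi-likelihood test at a Benjamini-Hochberg adjusted p under 0.05. Of the 16112 genes tested, 14% were called higher and 11.7% lower, and 6024 had an unadjusted p under 0.05. The members' median log2 fold change was 0.01, as was that of all genes tested, with members ranging from -0.42 to 1.09 and 5 on each side of 0. Members are described by role below. Values by liver are given below as CPM (a library-scaled count) after TMM scaling, the scale of the test, in the order of livers 1, 2 and 3.

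**Figure D1:**
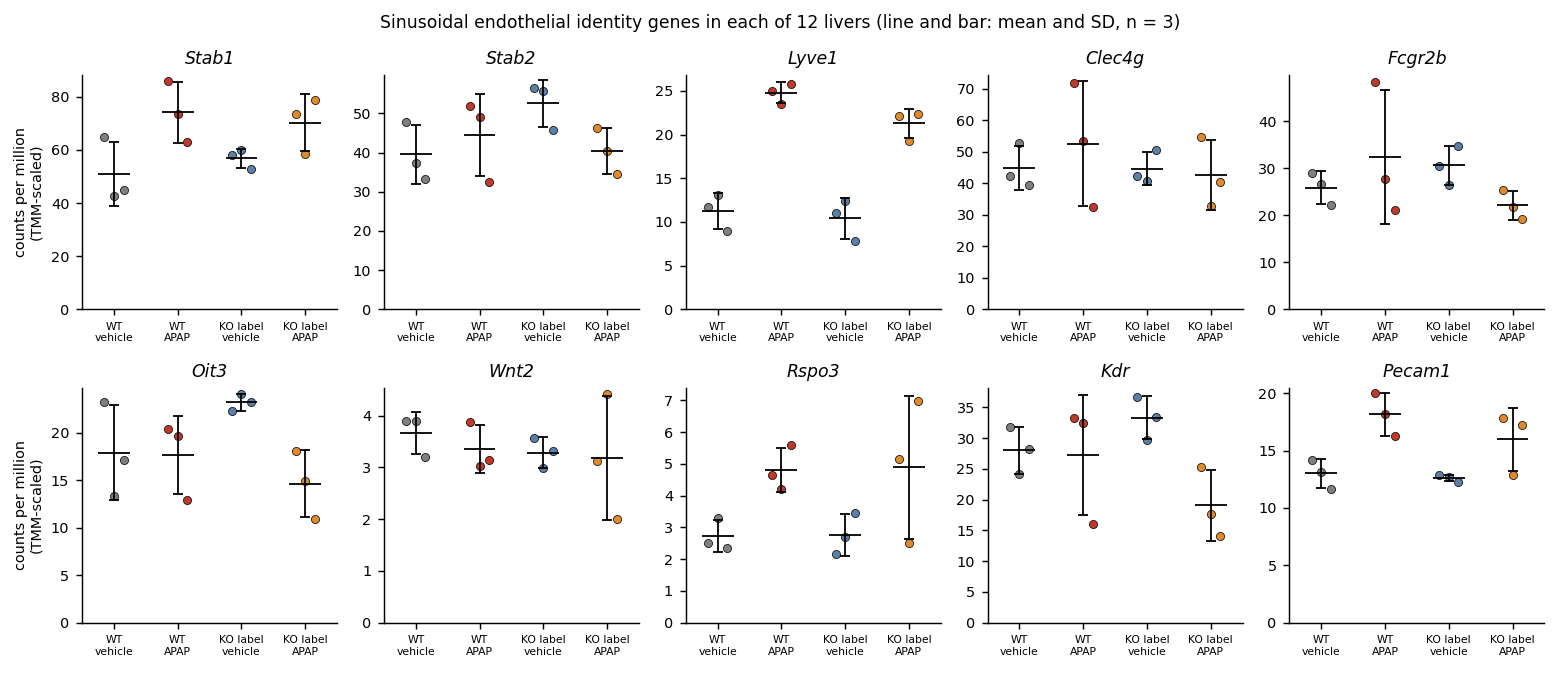
Each panel plots a member in TMM-scaled CPM on the y axis against the 4 groups on the x axis, with a point per liver and the mean and SD of 3 livers as a line and bar. *Lyve1* is the panel in which all 6 APAP livers (19.3 to 25.8 CPM) sit above all 6 vehicle livers (7.82 to 13.1 CPM).

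Among the clearance receptors, *Lyve1* rose 2.12-fold over all livers. In WT it was at 11.7, 13.1 and 8.96 CPM with vehicle and at 25.0, 23.5 and 25.8 CPM with APAP. Under the KO label it was at 11.0, 12.4 and 7.82 CPM with vehicle and at 22.2, 19.3 and 22.4 CPM with APAP. No APAP liver overlapped a vehicle liver under either label. The log2 fold change was 1.09 ± 0.13 (SE; edgeR adjusted p = 8.6e-05), and it stayed between 1.02 and 1.15 when each liver was left out in turn. In TPM, which is not TMM-scaled, *Lyve1* in WT APAP liver 1 was at 9.53 against 16.9 and 16.3 in WT APAP livers 2 and 3, so the height of that liver depended on the scaling.

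*Stab1* rose by less. It was at 64.8, 42.7 and 45.0 CPM in WT vehicle livers and at 86.0, 73.4 and 63.1 CPM in WT APAP livers. With the KO label it was at 57.9, 59.8 and 52.9 CPM with vehicle and at 73.7, 58.3 and 78.8 CPM with APAP. WT vehicle liver 1 reached the range of the APAP livers, and liver 2 of the KO label with APAP lay within the vehicle range. In TPM, WT APAP liver 1 was the lowest APAP liver, at 10.7. The log2 fold change over 12 livers was 0.42 ± 0.13 (SE; edgeR adjusted p = 0.0309). The call was lost without KO-label APAP liver 1 (edgeR adjusted p = 0.0516) or 3 (0.0656), KO-label vehicle liver 3 (0.0592), or WT vehicle liver 2 (0.0565) or 3 (0.0784). It was also lost without both livers that stood apart (0.0627). *Stab1* shares exonic sequence with *Nt5dc2* on the opposite strand, which had at most 634 counts in a liver, and whether the counting used strand was not given in the sources used here.

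*Stab2*, the relative of *Stab1*, was not called. It was at 47.9, 37.4 and 33.4 CPM in WT vehicle livers and at 52.0, 49.0 and 32.5 CPM in WT APAP livers. Livers with the KO label were at 56.4, 55.8 and 45.7 CPM with vehicle and at 46.4, 40.3 and 34.6 CPM with APAP. The groups overlapped under WT and under the KO label, and the log2 fold change was -0.11 ± 0.16 (SE; edgeR adjusted p = 0.662).

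The lectin *Clec4g* was at 42.3, 52.6 and 39.3 CPM in WT vehicle livers and spread from 72.0 through 53.5 to 32.3 CPM in WT APAP livers. KO-label livers were at 42.4, 40.9 and 50.7 CPM with vehicle and at 54.7, 32.7 and 40.5 CPM with APAP. APAP livers lay on either side of the vehicle livers, and the log2 fold change was 0.08 ± 0.19 (SE; edgeR adjusted p = 0.780). *Fcgr2b* showed the same wide spread among WT APAP livers, at 48.4, 27.7 and 21.2 CPM, against 28.9, 26.7 and 22.1 CPM with vehicle. In TPM, WT APAP liver 1 lay below liver 2 for both genes, at 57.5 against 80.6 for *Clec4g* and 34.2 against 36.8 for *Fcgr2b*. Under the KO label *Fcgr2b* was at 30.6, 26.4 and 34.8 CPM with vehicle and at 25.4, 21.9 and 19.2 CPM with APAP, without overlap in CPM. Its log2 fold change over 12 livers was -0.07 ± 0.21 (SE; edgeR adjusted p = 0.834). In the transcript of *Fcgr2b*, 11.4% of positions lay in runs of 50 bases shared with other genes, most often with *Fcgr3*, so a part of its counts may be split with that gene. The other 9 members shared no such run.

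Among the secreted proteins, *Rspo3* rose 1.77-fold over all livers. It was at 2.52, 3.29 and 2.36 CPM in WT vehicle livers and at 4.66, 4.22 and 5.58 CPM in WT APAP livers, without overlap in CPM. In TPM, *Rspo3* in WT APAP liver 1 (1.93) lay below WT vehicle liver 2 (1.99). With the KO label it was at 2.15, 2.68 and 3.45 CPM with vehicle and at 5.16, 2.51 and 7.00 CPM with APAP. Liver 2 of the KO label with APAP thus lay among the vehicle livers. The log2 fold change was 0.83 ± 0.22 (SE; edgeR adjusted p = 0.0167), and the call held with each liver left out in turn (largest edgeR adjusted p = 0.0468). The counts behind it were low, at 118 to 492 per liver.

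*Wnt2*, the other ligand of the pericentral endothelium, did not pass the test. It was at 3.89, 3.90 and 3.19 CPM in WT vehicle livers and at 3.88, 3.03 and 3.13 CPM in WT APAP livers. Livers with the KO label were at 3.56, 2.98 and 3.31 CPM with vehicle and at 3.11, 4.41 and 2.01 CPM with APAP. The vehicle livers fell inside the range of the APAP livers, and the log2 fold change was -0.09 ± 0.18 (SE; edgeR adjusted p = 0.753).

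*Oit3*, a gene of liver endothelium with a zona pellucida domain, differed between livers of a group as much as between treatments in WT, at 23.2, 13.3 and 17.2 CPM with vehicle and 20.3, 19.7 and 12.9 CPM with APAP. Under the KO label its vehicle livers were close together at 22.3, 24.0 and 23.2 CPM, and all 3 APAP livers were lower at 18.0, 14.9 and 10.9 CPM. Over all livers the log2 fold change was -0.34 ± 0.19 (SE; edgeR adjusted p = 0.202), and without both livers that stood apart it was -0.51 (edgeR adjusted p = 0.0323). The fit without both livers called 2519 of 16318 genes lower.

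Of the endothelial receptors shared with other vessels, *Pecam1* rose and *Kdr* did not. *Pecam1* was at 14.2, 13.1 and 11.7 CPM in WT vehicle livers and at 20.1, 18.2 and 16.3 CPM in WT APAP livers. KO-label livers were at 12.9, 12.7 and 12.3 CPM with vehicle and at 17.9, 12.9 and 17.2 CPM with APAP. In CPM, apart from liver 2 of the KO label with APAP, every APAP liver exceeded every vehicle liver. In TPM, *Pecam1* in WT APAP liver 1 was at 6.06, below WT vehicle liver 1 (7.46) and KO-label vehicle liver 1 (7.63). The log2 fold change was 0.41 ± 0.10 (SE; edgeR adjusted p = 0.0119), the call holding with each liver left out in turn.

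*Kdr* was at 31.8, 24.1 and 28.2 CPM in WT vehicle livers and at 33.2, 32.5 and 16.1 CPM in WT APAP livers. With the KO label it was at 36.7, 29.7 and 33.5 CPM with vehicle and at 25.3, 17.7 and 14.1 CPM with APAP. In CPM, WT APAP livers 1 and 2 lay above the WT vehicle livers and liver 3 lay below them, whereas all 3 APAP livers of the KO label lay below their vehicle livers. In TPM, WT APAP liver 1 (5.57) lay below the WT vehicle livers (5.95 to 9.38). KO-label APAP liver 1 (8.41) then lay within its vehicle range (7.54 to 12.2). Over 12 livers the log2 fold change was -0.42 ± 0.22 (SE; edgeR adjusted p = 0.175), and without both livers that stood apart it was -0.59 (edgeR adjusted p = 0.0487). The fit without both livers called 2519 of 16318 genes lower.

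In WT livers alone, 1 member was called higher with APAP and 0 lower, beside 1.62% of 15693 genes called higher and 0.427% called lower. That member was *Lyve1*, with a log2 fold change of 1.15 ± 0.19 (SE; edgeR adjusted p = 0.0287). The call was lost without WT APAP liver 1 (edgeR adjusted p = 0.0513) or 3 (0.132), without WT vehicle liver 1 (0.140) or 3 (0.134), and with the replicate number as a block (0.144), while the log2 fold change stayed between 0.99 and 1.26. *Rspo3* (log2 fold change 0.83, edgeR adjusted p = 0.139) and *Pecam1* (0.49, adjusted p = 0.187) did not pass, though their WT groups did not overlap in CPM. In TPM, WT APAP liver 1 lay within the range of the WT vehicle livers for both genes. The members' median in WT was 0.29, against 0.03 for all genes tested, and it was -0.01 without WT APAP liver 1.

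Under the KO label, 1 member was called higher and 2 lower, beside 13% of 15665 genes called higher and 9.6% called lower. *Lyve1* rose again, with a log2 fold change of 1.04 ± 0.17 (SE; edgeR adjusted p = 0.00542), and it was called with any liver left out. *Kdr* fell by 0.80 ± 0.21 (SE; edgeR adjusted p = 0.0293) and *Oit3* fell by 0.66 ± 0.18 (SE; edgeR adjusted p = 0.0319) on the log2 scale. Both falls were called when KO-label APAP liver 1 was left out (edgeR adjusted p = 0.0105 for *Kdr* and 0.0202 for *Oit3*) and lost their call when any other liver was, with edgeR adjusted p of 0.0592 to 0.0813 for *Kdr* and 0.0624 to 0.0961 for *Oit3*. They were also lost when all 12 livers were fitted together (edgeR adjusted p = 0.0721 and 0.0884). *Fcgr2b* (log2 fold change -0.46, edgeR adjusted p = 0.0651) and *Stab2* (-0.37, adjusted p = 0.110) lay on the same side without passing. The DESeq2 Wald test called *Fcgr2b* lower as well (adjusted p = 0.0385), which made 3 members lower. Beside these values, 3 of 11 stellate cell and fibroblast markers were called lower. Of 12 Kupffer cell and macrophage markers 0 were called by edgeR, and 2 had an unadjusted p under 0.05, beside 5804 of 15665 genes. The Kupffer median was -0.41, with 2 above 0, against -0.02 over all genes tested. The part of these cells in the members' falls was not tested.

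**Figure D2:**
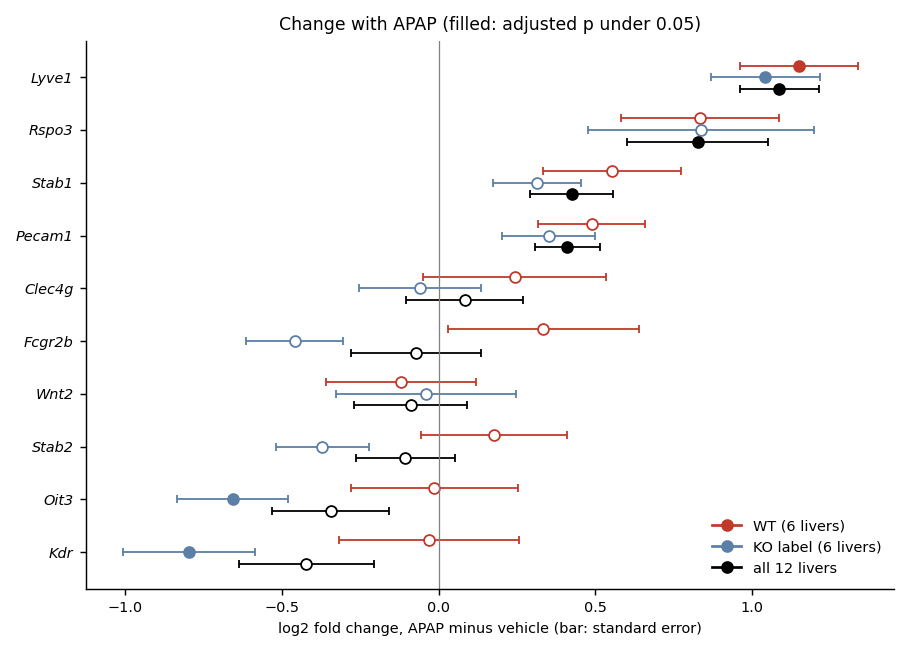
The x axis gives the log2 fold change of APAP against vehicle with its standard error, for each member on the y axis, in WT, under the KO label and over all 12 livers. Filled points had an edgeR adjusted p under 0.05, and *Lyve1* is the member filled in all 3 fits, whereas *Kdr* and *Oit3* are filled under the KO label alone.

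Whether the APAP change differed between the labels was tested as an interaction on 12 livers. The test called 0 of 16509 genes (0% higher and 0% lower), and hence 0 members, and DESeq2 also called 0 members. At an unadjusted p under 0.05 the count of members was 0 too, beside 848 of 16509 genes. The differences in log2 fold change (WT minus KO label) were 0.79 ± 0.36 (SE) for *Fcgr2b*, 0.77 ± 0.38 for *Kdr*, 0.64 ± 0.34 for *Oit3* and 0.55 ± 0.28 for *Stab2*, each with an edgeR adjusted p of 0.872. The falls of *Kdr* and *Oit3* under the KO label were thus not shown to differ from the WT values. In the same test 8 of 10 members had a difference above 0 (median 0.27), against a median of 0.02 over all genes tested. So did 11 of 12 other sinusoidal endothelial genes (median 0.35) and 16 of 19 pan-endothelial genes (0.27). The count was 12 of 12 for Kupffer cell and macrophage markers (0.81) and 10 of 11 for stellate cell and fibroblast markers (0.65). It was 6 of 8 for hepatocyte markers (0.18), 7 of 7 for erythroid and platelet markers (4.83) and 3 of 5 for neutrophil markers (0.97). The part of these cells in the members' differences was not tested.

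The labels were also compared within a treatment. With APAP, 0 members were called, beside 0.0124% of 16174 genes called higher and 0.0185% called lower in WT. At an unadjusted p under 0.05 (536 of 16174 genes) and by DESeq2 the counts of members were likewise 0. In CPM *Lyve1* was higher in each WT APAP liver than in any KO-label APAP liver, but the log2 difference (WT minus KO label) was 0.23 ± 0.15 (SE; edgeR adjusted p = 0.958). In TPM, WT APAP liver 1 (9.53) lay below every KO-label APAP liver (13.6 to 16.7). With vehicle, 0 members were called, beside 0.0131% of 15262 genes called higher and 0.0131% called lower in WT, and DESeq2 called 0. At an unadjusted p under 0.05 the count of members was 1, beside 1154 of 15262 genes. That member was *Stab2*, whose log2 difference was -0.41 ± 0.17 (SE; edgeR adjusted p = 0.640).

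Since members rose, fell and stayed within the same livers, pairs were also set against each other within a liver, where the scaling of the library cancels. These pairs were formed with the values known and carry no test. The ratio of *Lyve1* to *Stab2* in TPM was 0.518 to 0.859 (median 0.698) in the 6 vehicle livers and 1.16 to 2.38 (median 1.46) in the 6 APAP livers, with no overlap. The ratio of *Pecam1* to *Kdr* was 0.628 to 0.972 (median 0.754) with vehicle and 1.01 to 2.20 (median 1.28) with APAP, also with no overlap. In both pairs WT APAP liver 1 lay with the other APAP livers, at 1.46 and 1.09. The ratio of *Stab1* to *Stab2* overlapped slightly, at 0.925 to 1.33 with vehicle and 1.14 to 2.16 with APAP. The ratio of *Rspo3* to *Wnt2* was 0.851 to 1.64 with vehicle and 0.916 to 4.17 with APAP, and liver 2 of the KO label with APAP was the APAP liver within the vehicle range.

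**Figure D3:**
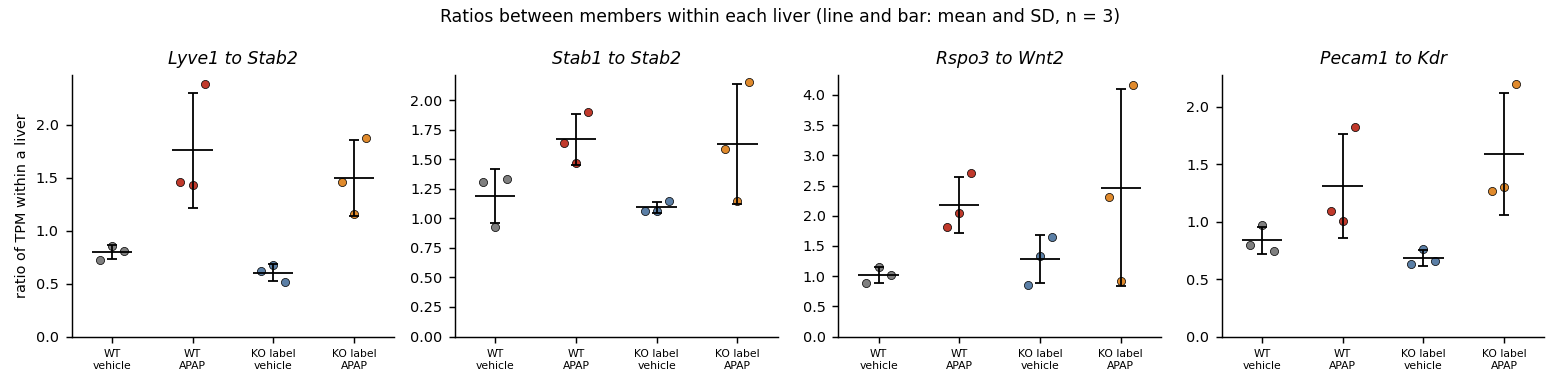
Each panel plots the ratio of a pair of members in TPM on the y axis against the 4 groups on the x axis, with a point per liver and the mean and SD of 3 livers. The ratio of *Lyve1* to *Stab2* is at most 0.859 in vehicle livers and at least 1.16 in APAP livers.

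The members did not vary as a block from liver to liver. Over the 45 pairs of members, the median Pearson r of log2 CPM over 12 livers was 0.26, from -0.61 to 0.90, and after subtraction of group means it was 0.41, from -0.71 to 0.86. These are descriptions over livers that share depth and scaling. After subtraction of group means, *Kdr* varied with *Oit3* (r = 0.86) and *Stab2* (0.83), *Stab2* with *Oit3* (0.82), and *Clec4g* with *Fcgr2b* (0.82). *Stab1* varied with *Pecam1* (0.81). After this subtraction *Lyve1* was only loosely tied to the rest, with its highest r at 0.43, for *Pecam1*, and *Rspo3* and *Wnt2* ran against each other (r = -0.71). Without the subtraction the r of *Lyve1* was 0.86 with *Pecam1*, 0.73 with *Stab1* and with *Rspo3*, and -0.51 with *Kdr*.

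**Figure D4:**
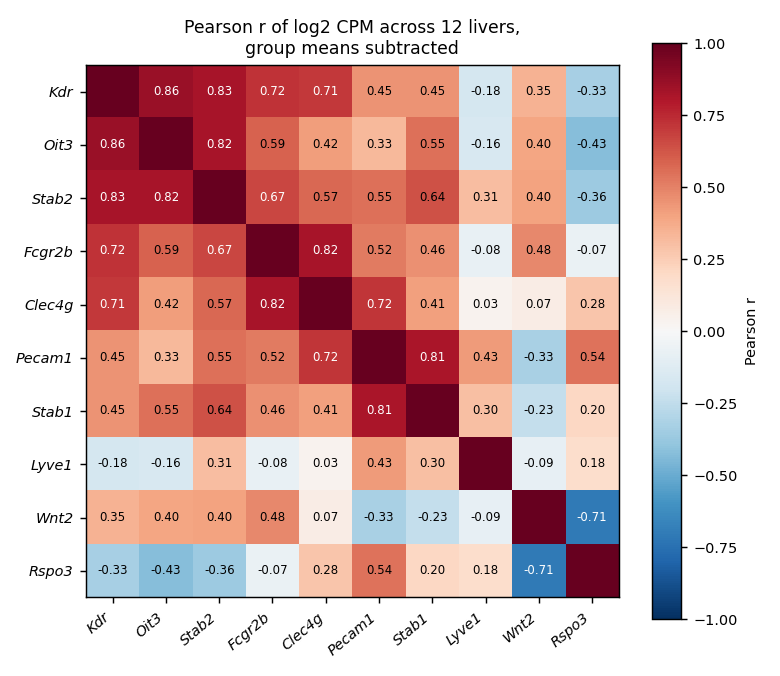
Both axes list the 10 members, and each cell gives the Pearson r of log2 CPM between a pair over 12 livers after group means were subtracted, from -1 in blue to 1 in red. *Kdr*, *Oit3*, *Stab2*, *Fcgr2b* and *Clec4g* form the red corner (0.42 to 0.86), and *Rspo3* with *Wnt2* is the bluest cell (-0.71).

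Kupffer cells share the sinusoid with these cells. Of 10902 non-member genes with a mean log2 CPM of at least 1, the 6 most like the members' mean of centred log2 CPM were *C1qb* (Pearson r = 0.88 over 12 livers), *Aopep* (0.88), *Folr2* (0.88), *Fcgr3* (0.86), *Cotl1* (0.86) and *Fcna* (0.85). Of these 6, *C1qb* and *Folr2* are on the list of Kupffer cell and macrophage markers. *Fcgr3* is the gene that shares most sequence with the member *Fcgr2b*, and the part of shared reads in its r was not tested. The summed CPM of the 12 Kupffer cell and macrophage markers was 321 and 311 in WT APAP livers 1 and 2 and 133 in liver 3, and the summed CPM of the members in those livers was 366, 305 and 229. The Kupffer sums were 150 to 243 in WT vehicle livers, 199 to 340 in KO-label vehicle livers and 172 to 240 in KO-label APAP livers. The highest, 340 in KO-label vehicle liver 1, stood beside a member sum of 276. Over all livers 0 of the 12 markers was called in either direction by edgeR (0 at an unadjusted p under 0.05). None of them was at 0 in all livers. The part of these cells in the members' values was not tested.

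Genes related to the members by function were taken from lists, over the same 12-liver comparison and beside the same 14% and 11.7% of all genes. Of 12 other sinusoidal endothelial genes, 2 rose and 0 fell: *Ctsl*, a lysosomal protease made by many cells (log2 fold change 1.28, edgeR adjusted p = 0.00141), and *Clec1b* (0.76, adjusted p = 0.0251). The transcription factor *Gata4* (0.41, adjusted p = 0.152) and *Plxnc1* (0.28, adjusted p = 0.113) did not pass, and the median was -0.10. Of 19 pan-endothelial genes, 2 rose and 0 fell, namely the junction genes *Esam* (0.95, adjusted p = 0.00445) and *Cdh5* (0.73, adjusted p = 0.0128), with a median of 0.00. *Nos3*, endothelial nitric oxide synthase (0.69, adjusted p = 0.0678), and *Mmrn2* (-0.42, adjusted p = 0.0916) did not pass. Of 8 genes of larger vessels 1 rose, *Efnb2* (0.88, adjusted p = 0.00590), and *Plvap* (0.27, adjusted p = 0.234), a gene of fenestral diaphragms, did not pass. *Ly6c1* (1.76, adjusted p = 0.0518) did not pass either, on 0 to 19 counts per WT vehicle liver. Of 3 tested genes of lymphatic endothelium, another cell type known for *Lyve1*, which some tissue macrophages also carry, 0 were called by edgeR (1 at an unadjusted p under 0.05): *Mmrn1* (0.86, adjusted p = 0.0768), *Reln* (0.11, adjusted p = 0.671), which stellate cells also make, and *Ccl21a* (0.00, adjusted p = 1).

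Angiocrine factors of the list, which holds secreted and membrane-bound proteins, had 5 of 8 tested genes higher and 0 lower, with a median of 0.65. *Thbd*, the membrane receptor thrombomodulin, rose by 2.16 (edgeR adjusted p = 0.00188), *Angpt2* by 1.67 (adjusted p = 0.00731), *Bmp6* by 0.89 (adjusted p = 0.000585) and *Bmp2* by 0.49 (adjusted p = 0.00869) on the log2 scale. The remaining call was *Hgf* (0.81, adjusted p = 0.0114), named after its value was seen. Of 16 receptors and pericentral targets of Wnt and R-spondin, 0 were higher and 10 lower, 4 had a log2 fold change above 0, and the median was -0.86. *Axin2*, a general Wnt target named after its values were seen, was at 0.65 (adjusted p = 0.167) over 12 livers and at 0.85 (adjusted p = 0.0344) under the KO label, where it was the 1 gene of the list called higher. *Glul*, glutamine synthetase of the innermost hepatocytes, went from 649 ± 136 to 144 ± 69.2 CPM in WT (SD, n = 3) and from 645 ± 8.12 to 128 ± 63.1 CPM under the KO label (SD, n = 3). It fell by 2.25 ± 0.29 (SE; edgeR adjusted p = 0.000185) on the log2 scale over 12 livers, *Slc1a2* fell by 3.31 (adjusted p = 0.000315), *Oat* fell by 1.52 (adjusted p = 0.000166) and *Cyp2e1* fell by 1.06 (adjusted p = 0.000276). These hepatocyte genes fell in livers where *Wnt2* was not called and *Rspo3* rose. Each value is a share of whole-liver RNA, and the part of these ligands in the falls was not tested. Of the VEGF ligands and co-receptors around *Kdr*, 3 of 6 tested rose and 0 fell: *Vegfd* (0.78, adjusted p = 0.0242), *Vegfa* (0.74, adjusted p = 0.0194) and *Nrp2* (0.74, adjusted p = 0.0240).

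Genes of endothelial activation had 2 of 8 tested higher and 0 lower. *Klf4*, a flow-responsive factor, rose by 1.67 (edgeR adjusted p = 0.000947). *Sele*, E-selectin, which activated endothelium makes to slow leukocytes, was called (adjusted p = 0.00259) on 0 to 5 counts per vehicle liver, 11 to 137 per WT APAP liver and 9 to 21 per KO-label APAP liver, and no fold is given from so few counts. *Vcam1* (0.44, adjusted p = 0.0864) and *Selp* (0.77, adjusted p = 0.144) did not pass.

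**Figure D5:**
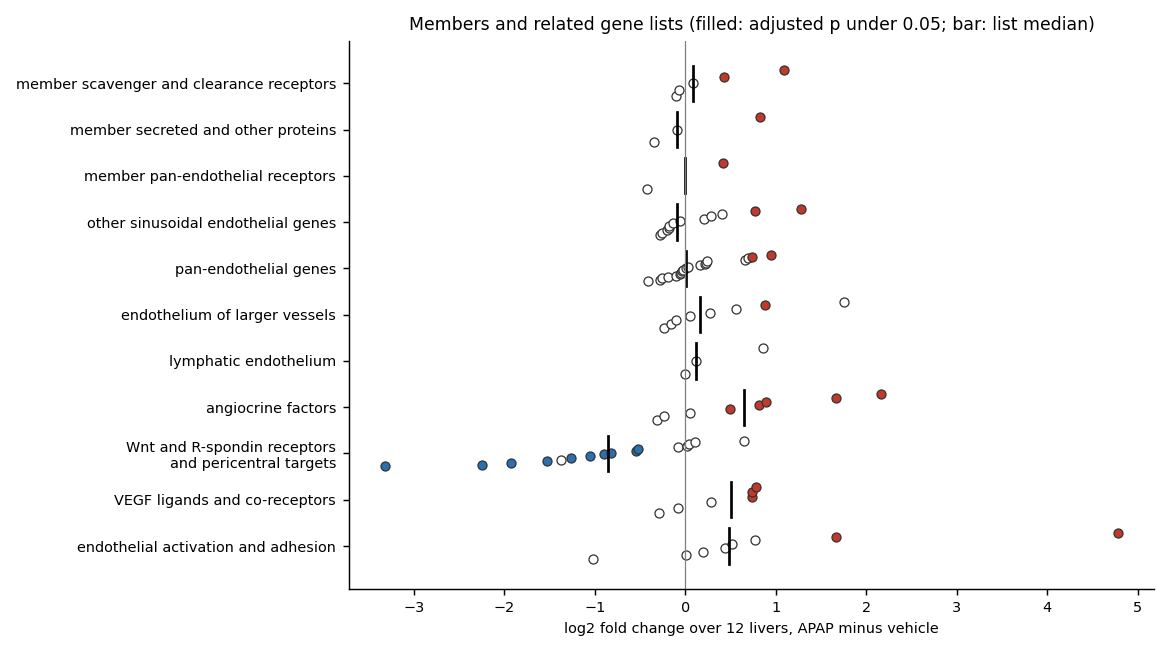
Points are genes of the members' role groups and of 8 related lists on the y axis, placed by log2 fold change of APAP against vehicle over 12 livers on the x axis, with filled points at an edgeR adjusted p under 0.05 and a bar at each list's median. The members straddle 0, the angiocrine factors have a median of 0.65, and the Wnt and R-spondin receptors and pericentral targets have a median of -0.86. The far right point is *Sele*, whose vehicle counts were at most 5.

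Markers of the other cell types of liver tissue gave the following beside these results. Of 11 stellate cell and fibroblast markers, 0 were higher and 1 was lower, *Lrat* (log2 fold change -0.88, edgeR adjusted p = 0.0489). Of 8 hepatocyte markers, 0 were called over 12 livers by edgeR (1 at an unadjusted p under 0.05), and *Alb* was at 0.23 (adjusted p = 0.411). Of 5 tested neutrophil markers, 1 was called higher by edgeR (5 at an unadjusted p under 0.05, beside 6024 of 16112 genes). All 5 had a log2 fold change above 0 (median 2.79). With vehicle livers alone, 2 of the 8 listed passed the filter on low counts, so some were tested only through the APAP livers. Their shared direction was therefore fixed in part by the filter. The call was *Cxcr2*, on 0 to 54 counts per vehicle liver and 11 to 192 per APAP liver, and without both livers that stood apart 4 were called. The summed CPM of the 8 listed neutrophil genes was 1.16 to 17.9 in vehicle livers and 1.15 to 126 in APAP livers, with *Camp* at 0 in all 12. Their part in the members' values was not tested.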

How the data were processed

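RNA-seq values of 12 livers were used, 3 in each of 4 groups assigned by the sample labels (per-sample columns without a sample: 0). Whole-number read counts per gene, without normalization, were deposited by the authors and entered the tests. Levels and ratios used the deposited TPM values, which the authors had scaled to transcript length and library. FPKM values deposited by the authors were not analysed here. The submitters' processing notes name FastQC 0.11.7, Trimmomatic 0.38, HISAT2 2.1.0, Bowtie2 2.3.4.1, StringTie 2.1.3b and mm10 (GRCm38), and the strand setting of the counting was not given in the sources used here. Libraries came from a stranded poly-A kit.

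Counts were scaled by TMM, filtered by filterByExpr and compared by quasi-likelihood F-tests in edgeR 4.0.16 (R 4.3.3), p-values being adjusted by Benjamini-Hochberg across the tested genes and called under 0.05. Fits by label used the 6 livers compared, and the 12-liver fits used the label as a term or an interaction. Alternatives were DESeq2 1.42.0 (size factors and Wald test), no filter, at least 10 counts in every library, all 12 livers in one fit, a replicate block, limma 3.58.1 on log2(TPM + 1) or log2(TPM + 0.1) after quantile normalization, each liver left out in turn, and both livers that stood apart left out. The scripts were tested on simulated data. Log2 CPM for correlations used a prior count of 2.

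The members, the 11 gene lists (3 of members by role, other sinusoidal, pan-endothelial, larger-vessel and lymphatic endothelium, angiocrine factors, Wnt and R-spondin receptors and pericentral targets, VEGF, activation) and the 7 marker lists (Kupffer cells, stellate cells, hepatocytes, neutrophils, B cells, erythroid cells and platelets, cholangiocytes) were chosen with earlier results of these data known. Named genes were all members, at most 4 per list with the smallest unadjusted p over 12 livers, the 6 genes most like the members' mean, and *Gna12*. Sequences and motif shares came from RefSeq windows of GRCm38.p6, and gene coordinates from the RefSeq table of that assembly, which held 45679 of the genes. Shared sequence and overlapping exons were read from the GENCODE transcripts and annotation. Counting error alone is small at these depths, and the 3 livers per group set the precision.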

Additional observations from a re-analysis of the deposited data

How the results depend on the processing

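Over all livers, *Lyve1*, *Rspo3* and *Pecam1* kept their direction and their call under all 9 alternatives tried beside the exclusion of single livers and with each liver left out, and *Stab1* kept its direction but not its call. Limma on log2(TPM + 1) called 3 members higher, leaving out *Stab1* (adjusted p = 0.0548), and it called 1938 genes higher and 2455 lower in place of 2262 and 1880. Without both livers that stood apart, 2 members (*Oit3* and *Kdr*) were called lower, beside 2519 of 16318 genes called lower and 3050 called higher. In WT the DESeq2 Wald test called 2 members higher (*Lyve1* and *Rspo3*), and the replicate block called 0. Same-numbered livers did not deviate together (r from -0.28 to 0.05 over the 12 pairs in 4 comparisons), so the replicate block pairs livers by number only, and in WT it took the count of genes called higher from 255 to 55 and lower from 67 to 1. Other counts of WT genes were 877 higher and 536 lower by the DESeq2 Wald test, 968 and 555 with all 12 livers in one fit, 435 and 196 without both livers that stood apart, and 41 to 316 and 0 to 126 with a liver left out. Under the KO label, the DESeq2 Wald test called 3 members lower in place of 2, with *Fcgr2b* added (adjusted p = 0.0385), and all 12 livers in one fit called 0 members lower and 844 genes lower in place of 1504, and leaving out a liver gave 1261 to 1967 genes higher and 734 to 1401 lower. The members' median in WT was 0.041 without both livers that stood apart. With each liver left out it ran from -0.0080 to 0.53, the count of members called higher in WT from 0 to 1, that called higher under the KO label from 1 to 3 (*Rspo3* and *Pecam1* joined without KO-label APAP liver 2), and that called lower from 2 to 0. The cause of these changes was not tested.

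The direction turned only for log2 differences that were not called. With each liver left out, the APAP change over all livers ran from -0.057 to 0.18 for *Clec4g*, from -0.29 to 0.031 for *Fcgr2b* and from -0.23 to 0.027 for *Wnt2*. In WT it ran from -0.059 to 0.50 for *Clec4g*, -0.083 to 0.57 for *Fcgr2b*, -0.19 to 0.21 for *Oit3* and -0.20 to 0.24 for *Kdr*, and under the KO label from -0.28 to 0.10 for *Clec4g* and -0.35 to 0.21 for *Wnt2*. The label difference with APAP ran from -0.038 to 0.20 for *Stab1*, -0.16 to 0.40 for *Wnt2* and -0.32 to 0.34 for *Rspo3*. With vehicle it ran from -0.054 to 0.25 for *Lyve1*, -0.14 to 0.10 for *Clec4g*, -0.19 to 0.17 for *Rspo3* and -0.020 to 0.11 for *Pecam1*. The interaction ran from -0.035 to 0.28 for *Lyve1*, -0.011 to 0.55 for *Clec4g*, -0.31 to 0.23 for *Wnt2* and -0.32 to 0.36 for *Rspo3*. Without both livers that stood apart, the turned values were -6.8e-05 for *Clec4g* over all livers, -0.059 for *Fcgr2b* in WT, -0.038 for *Stab1*, -0.039 for *Wnt2* and 0.0041 for *Rspo3* between labels with APAP, -0.015 for *Lyve1* and -0.14 for *Clec4g* between labels with vehicle, and -0.0022 for *Stab1* and 0.17 for *Rspo3* in the interaction. The other turned values belonged to *Rspo3* and *Clec4g*. For *Rspo3* between labels with APAP they were 0.10 with the replicate block, 0.064 by limma on log2(TPM + 1) and 0.10 on log2(TPM + 0.1), with vehicle 0.052 and 0.080 by the same limma fits, and in the interaction 0.015 and 0.031 by those fits and 0.014 with at least 10 counts in every library. For *Clec4g* between labels with vehicle they were -0.0085 with at least 10 counts in every library, -0.00016 with the replicate block, -0.057 by limma on log2(TPM + 1) and -0.058 on log2(TPM + 0.1). No member was called for a label difference or for the interaction under any alternative.

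The lowest count of a member in any liver was 118, and the calls of *Lyve1* in WT and of *Kdr* and *Oit3* under the KO label were lost when single livers were left out. Whole liver was measured and no sorted endothelium.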

Other observations

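Markers of cell types less close to the sinusoid also moved with APAP over the 12 livers. Of 5 cholangiocyte markers, 2 rose and 0 fell: *Sox9*, a biliary and progenitor factor that injured hepatocytes also make, had a log2 fold change of 3.20 ± 0.32 (SE; edgeR adjusted p = 2.57e-05), and *Epcam* had 0.82 ± 0.23 (SE; edgeR adjusted p = 0.0206), while *Krt19* (0.46, adjusted p = 0.415) and *Krt7* (0.33, adjusted p = 0.632) did not pass. *Sox9* was at 88 to 294 counts in WT vehicle livers and at 1374 to 1909 in WT APAP livers. Of 4 B cell markers, 0 were called by edgeR (0 at an unadjusted p under 0.05). Of 7 erythroid and platelet markers, 2 were called higher, the platelet genes *Pf4* (log2 fold change 2.01, edgeR adjusted p = 0.0485) and *Ppbp*, which had 0 counts in all 6 vehicle livers, 12 to 268 in WT APAP livers and 0 to 24 in KO-label APAP livers, and without both livers that stood apart 1 was called. The summed CPM of these 7 genes was 17416 in WT APAP liver 1 and 254 to 749 in the other 11 livers.

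Under the KO label 3 of 11 stellate cell and fibroblast markers were lower with APAP, namely *Lrat* (log2 fold change -1.14, edgeR adjusted p = 0.0258), *Col1a1* (-1.72, adjusted p = 0.0451) and *Col3a1* (-2.01, adjusted p = 0.00899), beside 9.6% of all genes called lower. The mean CPM of *Col3a1* was 20.4 ± 11.5 with vehicle and 5.03 ± 0.971 with APAP (SD, n = 3), and the larger spread was in the vehicle livers.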
